A study of Mus musculus with 32 samples.

Results

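The genes described here were 2 calmodulin genes, Calm2 and Calm3, and 3 genes of small proteins with a motif that can bind calmodulin. These 3 were Nrgn (neurogranin), Pcp4 (Purkinje cell protein 4, also called PEP-19) and Pcp4l1 (Pcp4-like 1). All 5 genes were taken by name from the combined 3′UTR table, where they made up 5 of 44081 genes. Their 9 annotated 3′ ends were taken from the table of single ends, which held 74532. Each library came from the soma or the dendrites of 1 hippocampal neuron of C57BL/6 mice, taken at embryonic day 18 and cultured for 15 days with no treatment given in the labels. The dendrites were cut off and aspirated into a tube apart from the soma, so the 16 dendrite and 16 soma libraries formed 16 pairs. RNA was amplified by the aRNA method, which copies poly-adenylated RNA by in vitro transcription, in 3 rounds for neurons 1 to 4 and in 2 rounds for neurons 5 to 16. The neurons came from several cultures that the labels do not tie to single neurons, so p-values measure the spread between neurons. Per the study the dendrite samples were not expected to hold axon. The labels give an ERCC spike-in for neurons 3 to 16 and a dilution factor of 0 for neurons 1 and 2.

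Calmodulin is a small protein that binds calcium ions through EF-hands and then switches on kinases, phosphatases, cyclases and channels. In the mouse more than 1 gene encodes the same calmodulin protein, and the transcripts differ mainly in their untranslated regions. Neurogranin, PEP-19 and Pcp4l1 carry an IQ motif, a short helix that can hold calmodulin. Neurogranin releases calmodulin when calcium rises or when protein kinase C phosphorylates the motif. Binding of calmodulin by these proteins was not tested here. Neurogranin is known as an abundant postsynaptic protein of forebrain pyramidal neurons, and its mRNA has long been described in dendrites.

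All 5 genes lay in the GENCODE annotation of GRCm38. Calm2 was on chromosome 17 (87433412 to 87446935, minus strand), Calm3 on chromosome 7 (16915379 to 16924114, minus strand), Nrgn on chromosome 9 (37544492 to 37552904, minus strand), Pcp4 on chromosome 16 (96467606 to 96525793, plus strand) and Pcp4l1 on chromosome 1 (171173262 to 171196268, minus strand). Calm2 and Calm3 had 450 coding bases each, stop codon included, and differed at 78 of them (82.7% identity). Of these differences, 74 were at the third codon position, and the translated sequences of 149 residues differed at 0 positions. The first 30 coding bases, with the bases that differ in capitals, show how reads on the coding part could still be told apart:
Calm2: atggctgaccaActgactgaAgaGcagatt
Calm3: atggctgaccaGctgactgaGgaAcagatt

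The 3 small proteins had 78 (Nrgn), 62 (Pcp4) and 68 (Pcp4l1) residues. Translated Pcp4 and Pcp4l1 had the same residue at 44.1% of the aligned positions, against 17.6% for Nrgn and Pcp4 and 19.6% for Nrgn and Pcp4l1. The feature common to these genes is the start of the IQ motif, an isoleucine and a glutamine followed by an arginine after a short gap. Its codons are shown with the glutamine and arginine codons in capitals, at chr9:37546076-37546093 for Nrgn (minus strand), chr16:96525464-96525481 for Pcp4 (plus strand) and chr1:171174419-171174436 for Pcp4l1 (minus strand):
Nrgn: atcCAGgcgagtttcCGG
Pcp4: attCAGtctcagttcAGA
Pcp4l1: atcCAGggcaagttcCGG

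Since aRNA amplification is primed from the poly(A) tail, the annotated 3′ end bears on where a gene is counted. All 5 main transcripts had the poly(A) signal AATAAA within 40 bases of their annotated end, as did 47.8% of 48038 protein-coding transcripts. The signal is in capitals in these 30-base runs from the end of the 3′UTR, at chr17:87433412-87433441, chr7:16915379-16915408, chr9:37544492-37544521, chr16:96525764-96525793 and chr1:171173274-171173303 (the run of Pcp4l1 stops short of its annotated end):
Calm2: ttccAATAAAaaaaattacaatttacccaa
Calm3: aatgttttccAATAAAatacagtgactacc
Nrgn: gtgaatAATAAAgaggaatgtctaagtgta
Pcp4: ttgtAATAAAaaggaggtaagatgagtgaa
Pcp4l1: tgacAATAAAaaaagccctcaaatgggggc

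Libraries held 646521 to 6954420 reads on 3′UTRs in dendrites and 925525 to 21169974 in somas, and a count of 0 therefore allows up to 3 reads, or 0.431 to 4.64 CPM (counts scaled to a common library total) in dendrites and 0.142 to 3.24 CPM in somas (counting error only, since reads carry no molecular identifiers). Levels are given as CPM scaled by TMM factors, which come from a trimmed mean of the ratios of genes between libraries. In bulk RNA of a compartment, fewer copies of a gene and more of all other RNA cannot be told apart. The summed level of 8 neuronal markers was 4305 to 19257 CPM in dendrites and 3879 to 17260 CPM in somas. Gad1, the GABA-synthesizing enzyme of interneurons, had reads in 16 of 16 dendrites and 16 of 16 somas (median 6990 CPM in somas, 691 to 12188). The summed CPM of 8 interneuron markers was above that of 8 pyramidal markers in 15 of 16 somas and 15 of 16 dendrites. The exceptions were the soma of neuron 2 (2094 against 1609.9 CPM, pyramidal against interneuron) and the dendrites of neuron 15 (3259 against 1737 CPM). In the median library Gfap, Aldh1l1 and S100b of astrocytes and all 7 microglial markers were at 0 in both compartments. The astrocyte markers summed to 0 to 1858 CPM in dendrites and 13.9 to 735 CPM in somas, and the microglial markers to 0 to 386 and 0 to 11.8 CPM. Oligodendrocyte markers summed to 0 to 659 CPM in dendrites and 0.0913 to 329.8 CPM in somas. The median sums were higher in dendrites for astrocyte (364 against 266 CPM) and oligodendrocyte markers (51.5 against 33.9 CPM). The 4 tested genes of each had a median log2 fold change of 1.09 and 1.75, with 0 called by edgeR. Pyramidal (375 against 239 CPM), microglial (9.26 against 0.832 CPM) and endothelial sums (2.11 against 0.265 CPM) also had higher medians in dendrites. Those of interneuron (4166 against 11917 CPM) and neuronal markers (7907 against 8323 CPM) were lower in dendrites. The part of these cell types in the results was not tested.

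**Figure D1:**
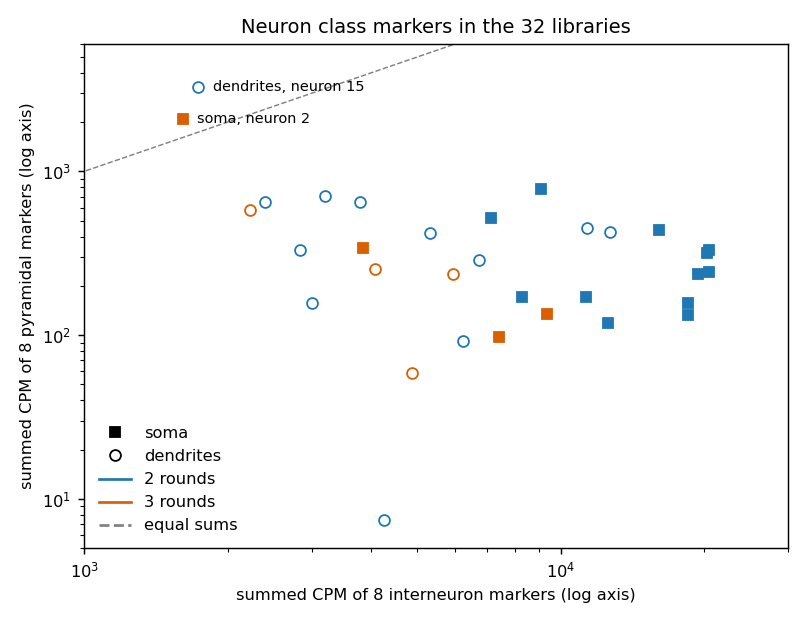
Summed CPM of 8 pyramidal markers (y, log axis) against that of 8 interneuron markers (x, log axis) in the 16 soma libraries (squares) and 16 dendrite libraries (open circles), coloured by rounds of amplification. The soma of neuron 2 and the dendrites of neuron 15 are the 2 points above the line of equal sums.

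Calm2 was the most abundant member in somas and was lower in the dendrites of nearly every neuron. In somas it had a lowest value of 1649.5, a median of 3600 and a highest value of 6094 CPM. The dendrites had 0, 1504 and 4818 CPM. Calm2 was lower in the dendrites than in the soma of 15 of 16 neurons, and in the other neuron (neuron 11) the compartments were at 2628 and 2621 CPM. The dendrites of neuron 16 held 0 Calm2 reads beside 544 reads of Calm3, and the soma of that neuron held 21509 Calm2 reads. The log2 fold change of dendrites over soma was -1.34 ± 0.448 (SE, n = 16 neurons). In edgeR's quasi-likelihood test with neuron as a block this had an adjusted p of 0.0568 over 10880 genes, above the threshold of 0.05. In exon reads Calm2 was lower in the dendrites of 13 of 16 neurons, with a change of -0.93 (adjusted p = 0.0965 in edgeR's test). Without neuron 16 the change was -0.86, with an adjusted p of 0.111 from the same test.

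Calm3 levels overlapped between the compartments, and its dendrite values were the most even of the 5 genes. In somas it ran from 257 to 1919.9 CPM with a median of 605, and in dendrites from 372 to 971 CPM with a median of 769.9. Calm3 was higher in the dendrites of 8 neurons and in the soma of the other 8. The log2 fold change was -0.03 ± 0.434 (SE, n = 16), with an adjusted p of 0.970 in edgeR's test. This sign is not stable: it turned positive with exon reads (0.36) and with 10 reads in 16 libraries as the filter (0.32).

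Nrgn, the neurogranin gene, was found in fewer libraries and moved by large steps between neurons. In dendrites it had 0, 14.3 and 186 CPM (lowest, median and highest) and in somas 0, 0.113 and 251 CPM. Reads of Nrgn were present in 11 of 16 dendrites and in 9 of 16 somas. In 5 neurons the reads were in the dendrites only, in 3 neurons in the soma only, in 6 neurons in both and in 2 neurons in neither. Of the 12 neurons with at least 10 Nrgn reads in all, 8 had more than 0.9 of the summed CPM in the dendrites and 3 had less than 0.1, so most neurons lay near an end of the scale. The highest soma by far was that of neuron 2, with 251 CPM against at most 32.6 CPM in the other 15. The same soma had the highest sum of pyramidal markers among somas (2094 CPM, with Neurod6 alone at 1642 CPM), and the part of neuron class in the Nrgn pattern was not tested. The log2 fold change was 4.00 ± 1.82 (SE, n = 16), and its adjusted p of 0.135 in edgeR's test missed the threshold. Without the block for neuron it was 0.93 (adjusted p = 0.759, edgeR). DESeq2 gave 3.25 with an adjusted p of 0.00681, in a fit that called 4.26% of genes higher in dendrites.

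Pcp4 had 0 reads in all 32 libraries of both 3′UTR tables, while the exon table held 21005 Pcp4 reads in 27 libraries. Among the other members there were 1.01 exon reads per 3′UTR read for Calm2, 1.16 for Calm3, 1.00 for Nrgn and 1.00 for Pcp4l1 (medians over libraries with at least 10 3′UTR reads). The ratio reached 2.05 for Calm3 and fell to 0.116 for Pcp4l1, in the dendrites of neuron 4 (11 exon and 95 3′UTR reads), where the log2 ratio of Pcp4l1 between compartments was 1.16 in 3′UTR reads and -1.03 in exon reads. Of 6549 genes with at least 10 exon reads in at least 16 libraries, 14 (0.214%) shared this absence from the 3′UTR table. In the annotation the span of Igsf5, an immunoglobulin superfamily gene on the same strand, covers 63 of the 276 bases of the Pcp4 3′UTR. Igsf5 itself had at most 68 3′UTR reads in a library, and the part of this overlap in the missing Pcp4 counts was not tested. The 3′UTRs of the other 4 genes had no overlapping gene in that annotation. All Pcp4 values therefore come from exon counts.

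Pcp4 was the member that edgeR called higher in dendrites. Dendrites had 0, 422 and 1705 CPM (lowest, median and highest) and somas 0, 61.9 and 871 CPM. Reads of Pcp4 were present in 15 dendrites and 12 somas, and in 3 neurons (11, 13 and 16) the dendrites held 249 to 656 reads and the soma 0. Pcp4 was higher in the dendrites of 13 neurons and in the soma of 2 (neurons 2 and 15). The ranges overlapped, and the 871 CPM in the soma of neuron 2 stood far above the 198 CPM of the next soma. The log2 fold change was 3.83 ± 0.930 (SE, n = 16), with an adjusted p of 0.00906 in edgeR's test over 9804 genes. In that fit 98 genes (1.0%) passed with higher values in dendrites and 257 (2.62%) with higher values in somas. DESeq2 also called Pcp4 (3.15, adjusted p = 0.000576), in a fit where 3.68% of genes passed in that direction. The call was lost without the block for neuron (2.04, adjusted p = 0.288) and without neuron 15 (4.14, adjusted p = 0.0965), both from edgeR's test. In the 12 neurons with 2 rounds the change was 3.69 (adjusted p = 0.0654) and in the 4 with 3 rounds 3.78 (adjusted p = 0.863).

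Pcp4l1, the homolog of Pcp4, had medians of 88.0 CPM in dendrites and 55.9 CPM in somas. Its values ran from 0 to 1351 CPM in dendrites and from 0 to 519 CPM in somas, with wide overlap. It was higher in the dendrites of 10 neurons and in the soma of 5, and neuron 13 held no read in either compartment. Of the 15 neurons with at least 10 reads, 3 had more than 0.9 of the summed CPM in the dendrites and 3 had less than 0.1. The log2 fold change of 1.01 ± 0.955 (SE, n = 16) had an adjusted p of 0.454 in edgeR's test.

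**Figure D2:**
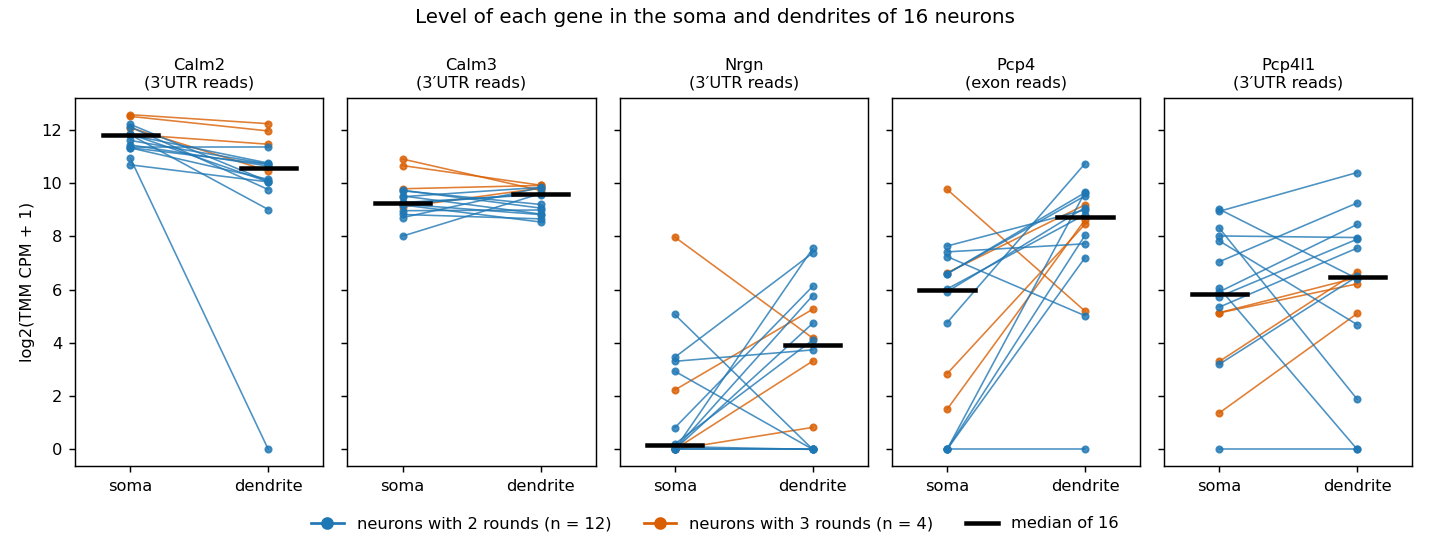
Level of each gene as log2(TMM CPM + 1) in the soma and dendrites of each of 16 neurons, joined by a line and coloured by rounds of amplification, with black bars at the medians. On this TMM scale Calm2 is lower in the dendrites of 15 of 16 pairs (its fitted change turns to 0.20 with the median gene near 0), Calm3 is higher in 8 of 16, and Pcp4 (exon reads) is higher in 13 of 16, while the soma of neuron 2 stands high for Nrgn and Pcp4.

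Against the background of the whole table, none of the 4 members tested on 3′UTR reads was called, where 90 of the 10880 genes (0.827%) passed toward dendrites and 621 (5.71%) toward somas. Of these 4 members, Calm2 and Nrgn had an unadjusted p under 0.05 in edgeR's test (0.00424 and 0.0332). So did 3287 of the 10880 genes, 386 of them higher in dendrites. DESeq2 called Calm2 higher in somas (-1.58, adjusted p = 0.00736) and Nrgn higher in dendrites, in a fit that called 46.2% of genes higher in somas. The median gene had a log2 fold change of -1.49, so Calm2 lay close to the median gene and Calm3, Nrgn and Pcp4l1 lay above it.

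The direction of a member depended on the scaling. With the median gene set near 0, Calm2 was at 0.20 (adjusted p = 0.853) and Calm3 at 1.51 (adjusted p = 0.0214), in a fit where 590 genes (5.42%) passed toward dendrites and 90 toward somas. With the libraries scaled to ERCC spike-ins, synthetic RNAs added to the tubes of 14 of the neurons, Calm2 was at -3.79 (adjusted p = 8.75e-05), Calm3 at -2.36 (adjusted p = 0.0166) and Pcp4l1 at -1.97 (adjusted p = 0.153). In that fit 16 genes (0.152%) passed toward dendrites and 6629 (62.9%) toward somas. Nrgn stayed positive under these scalings (5.46, adjusted p = 0.0666, and 2.15, adjusted p = 0.281). In exon reads, where 444 genes (4.53%) passed toward dendrites and 28 (0.286%) toward somas with the median gene near 0, Pcp4 was at 5.13 (adjusted p = 1.38e-06) and Nrgn at 5.28 (adjusted p = 0.0403). With spike-in scaling of exon reads, which put 0.126% of genes toward dendrites and 64.4% toward somas, Pcp4 was at 1.18 (adjusted p = 0.426) and Nrgn at 2.03 (adjusted p = 0.349). All of these are edgeR values.

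**Figure D3:**
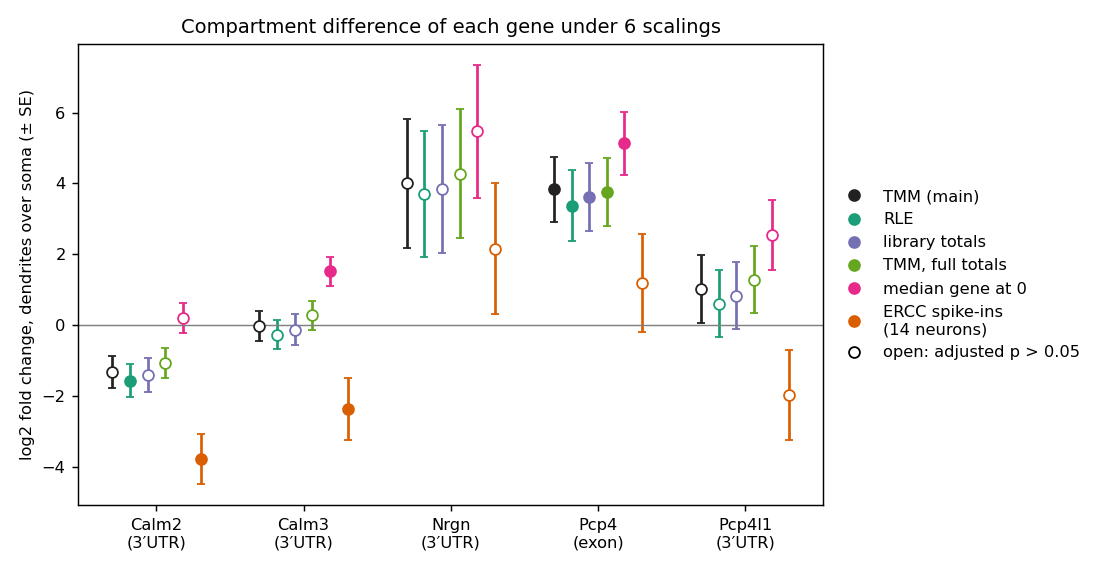
Log2 fold change of dendrites over soma with its SE from edgeR (y) for each of 5 genes under 6 scalings, with filled points at an adjusted p of at most 0.05. Calm2, Calm3 and Pcp4l1 change sign between scalings, as with Calm2 at 0.20 and -3.79, while Nrgn and Pcp4 stay above 0.

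The members were also set against each other in the same libraries, where the scaling of a library drops out of a share of its reads. Calm2 supplied a lower share of the reads of both calmodulin genes in dendrites than in somas. Its share was 69.3% to 93.4% in somas with a median of 83.5%, and 0% to 84.3% in dendrites with a median of 66.9%. The share was lower in the dendrites of 15 of 16 neurons, and neuron 2 went the other way (69.3% in the soma and 74.4% in the dendrites). The lowest dendrite values were the 0% of neuron 16 and the 39.8% of neuron 12. The mean difference was -17.9 percentage points ± 21.2 (SD, n = 16, p = 0.000153 in a two-sided exact test over sign flips of the neurons). Without neuron 16 it was -13.6 points ± 13.2 (SD, n = 15, same exact test, p = 0.000305). Neurons with 2 rounds had a difference of -22.5 ± 22.5 points (SD, n = 12) and those with 3 rounds -3.87 ± 6.01 points (SD, n = 4). The difference between these sets missed the threshold (p = 0.0813 in a two-sided exact permutation test over 1820 splits, 0.122 adjusted over 3 such tests).

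**Figure D4:**
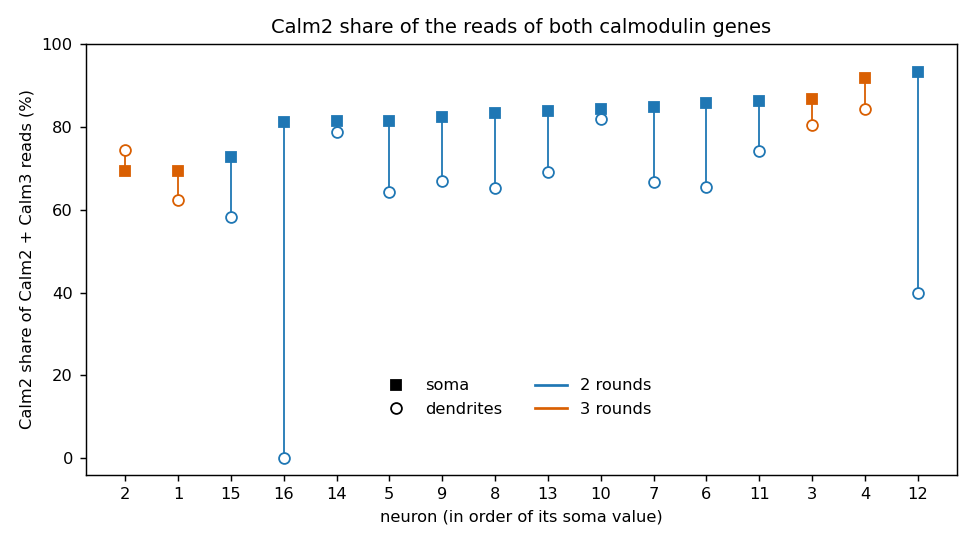
Calm2 reads as a percentage of Calm2 plus Calm3 reads on 3′UTRs (y) in the soma (squares) and dendrites (open circles) of each neuron (x, in order of the soma value). The circle lies below the square in 15 of 16 neurons, at 0% for neuron 16.

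For each of the 10 pairs of members, the log2 ratio of dendrites over soma was compared within neurons (counts plus 5 reads, two-sided exact test over sign flips, adjusted over the 10 pairs, with exon counts where Pcp4 took part). The reads added to a low count carry the ratio of the library depths, and neurons without reads of a gene enter with those added reads alone, as neurons 5 and 12 do for Nrgn, neuron 12 for Pcp4 and neuron 13 for Pcp4l1. The test was therefore repeated with the added reads scaled to library size, over all neurons and over those with at least 10 reads of both genes, a choice made after seeing the data. Calm2 lay below Calm3 by 1.62 ± 2.19 (mean and SD of the log2 difference, n = 16, adjusted p = 0.00122 from the exact test) and did so in 15 neurons, with the same adjusted p in both repeats. Calm2 also lay below Pcp4, with a mean difference of -4.76 ± 5.24 (adjusted p = 0.00417, and 0.00732 and 0.0119 in the repeats). Calm3 lay below Pcp4 (-3.23 ± 4.07, adjusted p = 0.0178, and 0.0225 and 0.0240 in the repeats). The comparisons with Nrgn were less stable. Calm2 minus Nrgn was -4.16 ± 4.69 (adjusted p = 0.00417), with -3.40 (adjusted p = 0.0225) over all neurons and -3.97 (adjusted p = 0.0574) over the 12 with reads in the repeats. Calm3 minus Nrgn was -2.54 ± 3.40 (adjusted p = 0.0205), and it lost the threshold in both repeats (-1.67, adjusted p = 0.115, and -2.33, adjusted p = 0.109). Pcp4 minus Pcp4l1 was 2.67 ± 4.47 and Calm2 minus Pcp4l1 was -2.27 ± 3.96 (both adjusted p = 0.0494), and neither passed in the repeats (adjusted p of 0.0622 and 0.0774, and of 0.115 and 0.131). Leaving out a single neuron raised the adjusted p above 0.05 for 13 of the 16 neurons in the case of Pcp4 and Pcp4l1 and for 12 in the case of Calm2 and Pcp4l1.

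The differences that missed the threshold were those between Nrgn and Pcp4 (-0.62 ± 2.51, adjusted p = 0.381), Calm3 and Pcp4l1 (-0.65 ± 2.93, adjusted p = 0.381) and Nrgn and Pcp4l1 (1.88 ± 3.93, adjusted p = 0.0940). In the 4 neurons with 3 rounds all 10 mean differences had p of at least 0.125, the smallest that 4 pairs can give in this exact test.

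In exon reads scaled to gene length and library total (RPKM), the order in somas was Calm2, Calm3, Pcp4, Pcp4l1 and Nrgn, with medians of 2523, 318, 64.6, 37.4 and 0.251 RPKM. In dendrites it was Calm2, Calm3, Pcp4, Pcp4l1 and Nrgn as well, with medians of 1123, 402, 349, 62.9 and 11.5 RPKM. Neighbours were compared in the order of their median reads per kilobase within libraries, which put Pcp4 ahead of Calm3 in dendrites. In somas Calm2 exceeded Calm3 by 2.79 ± 0.622 on the log2 scale and in 16 of 16 neurons (exact sign-flip test, adjusted p = 0.000122). Calm3 exceeded Pcp4 in 16 of 16 somas too. Pcp4 and Pcp4l1 did not differ beyond their spread in somas (-0.50 ± 4.11, adjusted p = 0.637, exact test), nor did Pcp4 and Calm3 in dendrites (-0.70 ± 2.48, adjusted p = 0.331, exact test). Pcp4l1 exceeded Nrgn in both compartments (adjusted p = 0.00403 in somas and 0.00752 in dendrites, exact test).

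The table of single ends counts the last 500 bases before each annotated 3′ end. Shares of ends are given among the reads on a gene's counted ends. Calm2 reads fell almost entirely on its distal end, with 418032 reads (99.9%), and the proximal end took 557 reads (0.133%). Nrgn had 1 end, and the single Pcp4 end held 0 reads. For Pcp4l1 99.1% of the reads on its counted ends (17297 reads) were on the proximal end. The combined 3′UTR table held 30493 Pcp4l1 reads, so many fell on neither counted end. The distal Pcp4l1 end had 84 reads in the dendrites of neuron 4 and 62 in those of neuron 7, and at most 2 in any soma. Its distal share was 10.5% ± 27.0 in dendrites and 0% in somas (n = 11 neurons, exact signed-rank test, two-sided, p = 0.25). In edgeR's fit across ends, 77 ends (0.723%) passed toward dendrites and 1805 (16.9%) toward somas. The distal Calm2 end was called higher in somas there (-1.51 ± 0.513 SE, adjusted p = 0.0392). The median end of that fit had a log2 fold change of -2.14, so the distal Calm2 end lay above it. The other 6 tested ends of the members were not called by edgeR there.

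Among reads on counted ends, Calm3 had the largest share outside its main end of the members with such reads. Its distal end took 89.2% of its reads on counted ends, the most proximal of 3 ends took 10.3% and the middle end 0.479%. Among reads on the distal and the most proximal end, the distal share was 76.8% to 99.8% in dendrites (median 93.7%) and 63.5% to 99.9% in somas (median 87.4%). The distal share was higher in the dendrites of 10 neurons and in the soma of 6. The mean difference of 3.55 ± 6.17 percentage points (SD, n = 16) had p = 0.0654 in the exact signed-rank test (two-sided), under the threshold of 0.1 used for isoforms in the study. At that threshold 8.4% of 3522 genes passed, 5.39% with a higher distal share in dendrites, and after adjustment over all of them the p of Calm3 was 0.972. No gene passed an adjusted p of 0.05 in this signed-rank test, where 0 of 3522 did and 296 passed p under 0.1. Leaving out any of 8 neurons moved the Calm3 p above 0.1, and over all 16 choices of the neuron left out the difference ranged from 2.90 to 4.38 points.

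Calm3 end usage also differed between the neurons with 3 rounds and those with 2 rounds of amplification. Per the study, neurons came from several cultures and days and were sequenced on HiSeq or NextSeq instruments. The labels do not tie these to single neurons, so their part in this difference cannot be told apart from that of the rounds. Averaged over both compartments, the distal share was 98.1% ± 1.69 (SD, n = 4) in neurons with 3 rounds and 87.8% ± 6.16 (SD, n = 12) in those with 2 rounds (exact permutation test over 1820 splits, two-sided, p = 0.00165, adjusted over 3 such tests 0.00495). In the dendrites of neuron 1 a single read was on the proximal end beside 632 on the distal end. Within the neurons with 2 rounds the distal share differed between compartments by 4.69 points (p = 0.0425, exact signed-rank test), and within those with 3 rounds by 0.127 points (p = 0.875, same exact test). The difference between these values had p = 0.207 (exact permutation test).

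**Figure D5:**
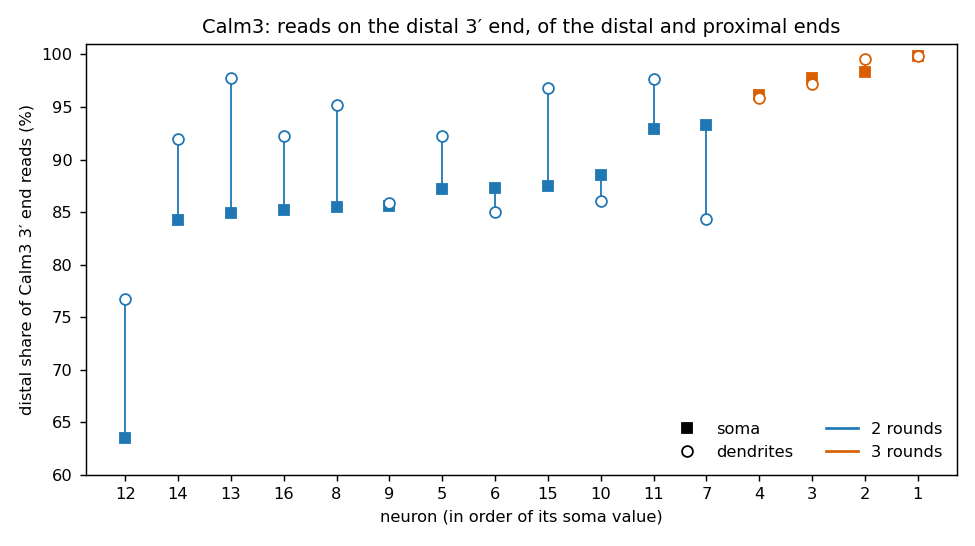
Share of Calm3 reads on the distal 3′ end among the distal and most proximal ends (y, from 60%) in the soma (squares) and dendrites (open circles) of each neuron (x, in order of the soma value). The 4 neurons with 3 rounds all lie above 95.9% in both compartments, and the dendrite value is higher in 10 of 16 neurons.

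The genes whose levels ran most like a member's over the 32 libraries were ranked by Spearman's rho of log2 CPM among 7109 genes with at least 10 reads in at least 16 libraries. For Calm2 they were Eif4a2, a translation initiation factor (rho = 0.854), Fkbp3 (0.840) and Prkar1a, a regulatory subunit of protein kinase A (0.834). For Calm3 they were Ywhag, a 14-3-3 protein (0.730), Gm26384 (0.730) and Eif4g2 (0.729). For Nrgn they were Sod1, superoxide dismutase (0.675), Ndufa5, a subunit of mitochondrial complex I (0.636), and Rab6b (0.600). For Pcp4 they were Nnat, neuronatin (0.828), Gm23134 (0.738) and Bag1 (0.653), and for Pcp4l1 Ap1s1 (0.683), Scrt1 (0.677) and Ndufa11 (0.662). These values are a description, since the libraries share compartment, depth and amplification.

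Other proteins with an IQ motif or an effector domain that bind calmodulin included small ones such as Gap43 and large ones such as Iqgap1 and the striatins. Of the 15 genes of this list 12 were tested, and edgeR called 0 in either direction. At an unadjusted p under 0.05 there were 3, all lower in dendrites. Over all 10880 genes 3287 passed that p, 386 of them higher in dendrites. The median log2 fold change of the list was -1.15, beside -1.49 over all 10880 genes. Gap43, the growth cone protein that carries an IQ motif like that of neurogranin, had -0.92 (adjusted p = 0.145) and was higher in the dendrites of 2 of 16 neurons. Marcks, a protein kinase C substrate that holds calmodulin and lipid, had -1.38 (adjusted p = 0.356). Basp1, a protein of similar function, had 0.06 (adjusted p = 0.928), with medians of 1089.6 CPM in dendrites and 1209 CPM in somas.

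Of 23 calmodulin-dependent kinases and their regulators, 20 were tested, and 0 rose and 2 fell in dendrites at an adjusted p of 0.05 (median -0.72), beside 0.827% and 5.71% of all genes. The 2 were Camkk1, which phosphorylates other kinases of this family (-6.79, adjusted p = 0.0181), and Dapk1, a death-associated kinase (-5.77, adjusted p = 0.0370), the latter at -4.56 (adjusted p = 0.123) with the median gene near 0. Camk2a and Camk2b, the main subunits of CaM kinase II, had 1.25 (adjusted p = 0.491) and -0.12 (adjusted p = 0.916). Their inhibitor Camk2n1 had 0.51 (adjusted p = 0.755) and the kinase-like Camkv -0.85 (adjusted p = 0.575).

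Calcineurin is the calmodulin-dependent phosphatase. Of 14 genes of its list 9 were tested, 0 rose and 1 fell, the scaffold Akap5 (-6.13, adjusted p = 0.0117), with a median of -2.75. The catalytic subunit Ppp3ca had -0.18 (adjusted p = 0.809), the regulatory subunit Ppp3r1 -0.90 (adjusted p = 0.380) and the inhibitor Rcan2 -1.41 (adjusted p = 0.215).

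Of 29 other effectors 24 were tested and 0 were called, with 1 higher and 4 lower at an unadjusted p under 0.05 in edgeR's test (median -1.05). That p was passed by 3287 of all 10880 genes, 386 of them higher in dendrites. The cyclase Adcy1 had -0.17 (adjusted p = 0.892) and the phosphodiesterase Pde1a 2.54 (adjusted p = 0.337). The effector that was higher at an unadjusted p under 0.05, named here after its values were seen, was the phosphodiesterase Pde1c (4.02 ± 1.31, adjusted p = 0.0510, higher in the dendrites of 12 neurons). The plasma membrane calcium pumps Atp2b1 and Atp2b2 had -1.58 (adjusted p = 0.214) and -2.32 (adjusted p = 0.133). Of 9 protein kinase C genes 5 were tested and 0 were called (median -0.94). In edgeR's test 1 had an unadjusted p under 0.05, beside 3287 of all 10880 genes. The 1 was Prkci (-4.13 ± 1.34, adjusted p = 0.0508), named after its values were seen, and Prkca had -0.49 (adjusted p = 0.701).

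Of 46 other EF-hand sensors and buffers 25 were tested, 1 rose and 0 fell (median -0.60). Pvalb, the parvalbumin of fast-spiking interneurons, rose by 2.39 ± 0.748 on the log2 scale (adjusted p = 0.0439), from a median of 15.4 CPM in somas to 108 CPM in dendrites, and was higher in the dendrites of 15 of 16 neurons. It lost this call with RLE factors (2.10, adjusted p = 0.0635) and with spike-in scaling (0.13, adjusted p = 0.920). Calb1, calbindin, had 1.92 (adjusted p = 0.292), and the sensors Hpca, Vsnl1 and Ncald had -2.17 (adjusted p = 0.292), -0.77 (adjusted p = 0.382) and -0.05 (adjusted p = 0.976). In all, 4 of 95 tested genes of the 6 lists were called, 1 toward dendrites and 3 toward somas, beside 0.827% and 5.71% of all genes. With the median gene near 0, 5 of 95 passed toward dendrites and 2 toward somas, beside 5.42% and 0.827% of all genes, and the medians of all lists but calcineurin's turned positive (0.39 to 0.85). Spike-in scaling put 0 of 94 toward dendrites and 54 toward somas, beside 0.152% and 62.9% of all genes. All of these list values come from edgeR's fit of 3′UTR counts.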

How the data were processed

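The authors deposited raw read counts for 32 libraries: a combined table over the 3′UTRs of each gene, a table of single 3′ ends (the last 500 bases of each, with closer ends merged) and exon counts per library with the ERCC spike-ins. Per the study's methods, reads from a stranded kit were trimmed, mapped to mm10 with STAR (version 2.4.0 in the submitters' processing notes) and uniquely mapped reads were counted by strand with VERSE. Totals per library limit how low a level can be seen.

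Genes were kept where 16 or more libraries held 1 read or more, and their counts were fitted with edgeR 4.0.16 (quasi-likelihood, robust, TMM, neuron as a block) in R 4.3.3, with p adjusted by Benjamini-Hochberg over all genes and a threshold of 0.05. DESeq2 1.42.0, other scalings and filters, exon counts, no block and single neurons left out were alternatives. Pcp4 was to be tested on 3′UTR counts but had 0 reads there, so its exon counts were used. Pairs of members were compared with exact sign-flip tests over neurons, 5 reads being added to each count and, in repeats added later, scaled to library size, and distal shares with exact signed-rank tests (at least 10 reads on both ends together in both compartments of at least 5 neurons), in Python 3.11.15 with SciPy 1.17.1. Soma and dendrites with the same number came from the same cell, and their libraries deviated together only weakly (mean correlation 0.0859 ± 0.0766, SD, n = 16, against -0.00532 ± 0.0528 for different neurons). No library was identical to another (0 pairs).

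Sequences and gene positions are from GENCODE vM21 (GRCm38). The text names the 5 members and their ends, the 3 genes most like each member over the libraries, list genes that were called and further list genes given by name, 1 of which is not reported here. The members, lists and tests were chosen with earlier results of these data known.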

Additional observations from a re-analysis of the deposited data

Results flagged for a closer look

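In the somas of the 4 neurons with 3 rounds of amplification, Nrgn stood at 251 CPM in neuron 2 and at 0 to 3.70 CPM in the other 3, and that soma's gap to the rest was 0.985 of the whole range, above Dixon's limit of 0.829. Pcp4 in exon reads stood at 871 CPM in the same soma and at 1.83 to 98.3 CPM in the other 3, with a gap of 0.889 of the range. For normally distributed values chance alone gives such a gap in about 1 in 20 groups, and 10 groups were looked at. Whether that rate holds for CPM of single-cell libraries was not tested. The soma of neuron 2 was also the one whose pyramidal markers summed above its interneuron markers, and the part of neuron class in these values was not tested.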

How the results depend on the processing

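Of 190 values under alternatives other than leaving out a neuron, 127 kept their direction and their side of the threshold or stayed within the stated margin. The number of genes called higher in dendrites was 463 with DESeq2, 590 with the median gene near 0, 16 with spike-in scaling, 15 with no filter, 157 without the replicate block, 41 in neurons with 2 rounds and 3 in those with 3 rounds. The number called higher in somas was 5029 with DESeq2, 1008 with RLE factors, 387 with TMM on full library totals (a setting chosen after seeing the data), 90 with the median gene near 0, 6629 with spike-in scaling, 143 with no filter, 181 with 10 reads in 16 libraries, 77 without the replicate block, 306 with 2 rounds, 1 with 3 rounds and 257 with exon counts. Calm2 was at -1.58 with DESeq2 and with RLE factors (adjusted p = 0.00736 and 0.0321), at -1.43 with no filter (adjusted p = 0.0224), at -3.79 with spike-in scaling and at 0.20 with the median gene near 0. Calm3 was at 0.27 with full totals, 1.51 with the median gene near 0, -2.36 with spike-in scaling, 0.32 with 10 reads in 16 libraries, 0.0537 with 2 rounds and 0.36 with exon counts. Nrgn was at 3.25 with DESeq2 and Pcp4l1 at -1.97 with spike-in scaling. Pcp4 lost its call with spike-in scaling (1.18), without the replicate block (2.04), with 2 rounds (3.69) and with 3 rounds (3.78). The interaction of compartment with rounds called 0 of 10880 genes in edgeR's test (288 at an unadjusted p under 0.05).

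Among pairs, Calm2 minus Pcp4l1 missed the threshold with 1 read added (-2.30), with 0.5 reads added (-2.31), with exon counts (-2.09), over neurons with at least 10 reads (-2.12), with 2 rounds (-2.07) and with 3 rounds (-2.89). Calm3 minus Nrgn did so with 0.5 reads added (-3.06) and with 3 rounds (-1.46), and Pcp4 minus Pcp4l1 over neurons with at least 10 reads (2.82) and with 3 rounds (0.72). Nrgn minus Pcp4l1 passed it with 2 rounds (2.84, adjusted p = 0.0335, exact test) and changed sign with 3 rounds (-0.98), and Nrgn minus Pcp4 changed sign over neurons with at least 10 reads (0.036). With the added reads scaled to library size (chosen after seeing the data), over all neurons and over those with at least 10 reads of both genes, the threshold was missed by Calm2 minus Pcp4l1 (-2.07 and -2.13), Calm3 minus Nrgn (-1.67 and -2.33) and Pcp4 minus Pcp4l1 (2.81 and 2.83), and over the latter neurons by Calm2 minus Nrgn (-3.97). With 3 rounds, where the exact test cannot pass, Calm2 minus Calm3 was -0.45, Calm2 minus Nrgn -1.91, Calm2 minus Pcp4 -2.99 and Calm3 minus Pcp4 -2.53. The distal share of Calm3 differed by 0.127 points with 3 rounds, and by 3.55 points without the replicate block (p = 0.207, permutation test). Genes with a different distal share numbered 173 with at least 50 reads and 0 at an adjusted p of 0.05 in the signed-rank test, against 296. In the order per kilobase, the 6 differences of 8 between neighbours lost that of Calm2 over Pcp4 in dendrites with 1 or 0.5 reads added (adjusted p = 0.0831 and 0.109, exact test).

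Leaving out 1 neuron at a time gave 55 to 119 genes higher in dendrites (neurons 7 and 15 left out) and 128 to 967 higher in somas (neurons 16 and 5 left out). Calm2 ranged from -1.44 to -0.86 and was called without neuron 2 (adjusted p = 0.0477), Calm3 from -0.11 to 0.35, Nrgn from 3.41 to 4.84, Pcp4 from 3.27 to 4.19 and Pcp4l1 from 0.78 to 1.58. Differences ranged from -1.75 to -1.14 (Calm2 minus Calm3), -4.64 to -3.25 (Calm2 minus Nrgn), -5.34 to -3.83 (Calm2 minus Pcp4), -2.78 to -1.67 (Calm2 minus Pcp4l1), -2.95 to -2.12 (Calm3 minus Nrgn), -3.68 to -2.77 (Calm3 minus Pcp4), -1.06 to -0.40 (Calm3 minus Pcp4l1), -0.99 to -0.26 (Nrgn minus Pcp4), 1.44 to 2.44 (Nrgn minus Pcp4l1, past the threshold without neuron 2) and 2.30 to 3.33 (Pcp4 minus Pcp4l1). Distal shares differed by -0.0404 to 0.0343 points for Calm2, 2.90 to 4.38 for Calm3 and 2.72 to 11.6 for Pcp4l1 (the lowest without neuron 4). Without the replicate block Nrgn fell to 0.93, and beyond the counts of genes, Pcp4 and the distal share of Calm3 the block changed no call. Alternatives for the distal share of Nrgn and Pcp4 were not run, since neither has a test. The cause of these changes was not tested. Nrgn rests on a median of 15 reads in dendrites and 1 in somas, which limits its fold change.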
